A study of Mus musculus with 18 samples.

Results

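The cytosolic ribosomal protein genes were followed through macrophages grown from mouse bone marrow, with and without LPS (lipopolysaccharide, an outer-membrane molecule of bacteria that macrophages recognise). Members were the rows whose GENCODE symbol starts with Rpl or Rps and a digit, or is Rpsa, Rplp0, Rplp1, Rplp2 or Fau, without the S6 kinases and the pseudogenes. This gave 82 of the 11164 genes in the table, on 20 chromosomes. Of these, 32 encode core proteins of the small (40S) subunit and 45 of the large (60S) subunit, 4 are paralogs of core genes (Rpl22l1, Rps27l, Rpl36al and Rpl7l1), and Rps19bp1 encodes a binding partner of a ribosomal protein and no ribosomal protein. A further 5 annotated genes that fit the rule (Rpl10l, Rpl24, Rpl39l, Rpl3l and Rps27rt) were not analysed here.

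Ribosomal proteins are made in nearly equal numbers, because each sits once in almost every ribosome, and their mRNAs are among the most abundant in growing cells. Most of these mRNAs start with a C followed by a run of C and T (the TOP motif), which Larp1 and the mTORC1 kinase use to switch their translation on and off together. Macrophages that meet LPS turn from growth towards defence, and several ribosomal proteins have named parts there: Rpl13a leaves the ribosome to silence inflammatory mRNAs, Rps3 takes part in NF-kB binding to DNA, and Rpl5 and Rpl11 hold back Mdm2 when ribosome assembly fails.

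The groups were WT C57BL/6J, BAFF KO and APRIL KO cells, each without stimulation or after 10 ng/ml LPS for 4 h. BAFF and APRIL are 2 cytokines best known for keeping B cells alive, and the labels also name day 16 of gestation and preterm birth. WT cells gave library 13 unstimulated and libraries 14 and 15 with LPS, BAFF KO cells 16, then 17 and 18, and APRIL KO cells 19, then 20 and 21. Each library stood in the table as 2 columns with the same library number and neighbouring index numbers, whose values were averaged. The sample titles number these columns as separate samples, and whether a pair is 1 library measured again is not stated, so the count of 2 LPS libraries per genotype rests on the shared library number. No label tells if libraries sharing a group are separate mice or cultures, so each p-value below reflects only how far these libraries spread, and that spread may be technical.

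The libraries held 5121833 to 6020780 reads in listed genes, between 1649338 and 1942218 in the column with the lower index and between 3472495 and 4078562 in the other. Tnfsf13, the gene of APRIL, had 0 reads in the 6 APRIL KO columns and 28 to 317 in each WT or BAFF KO column, and the gene of BAFF was not analysed here. Of 10 macrophage markers 9 were in the table, none of them under 1 RPKM (reads divided by gene length and by the depth of the column) in every library, and their summed level was 7183 to 7913 RPKM in unstimulated and 4820 to 5440 in LPS libraries. Skeletal muscle genes (29 of 38 in the table) summed to 356 to 506 RPKM in the WT libraries and 42.1 to 101 in the others, with 6 of them under 1 RPKM in every library, and neutrophil genes (14 of 15) were highest in library 16, at 6056 RPKM against 1574 to 3244 elsewhere. Stromal genes (9 of 10) summed to 504 RPKM in library 21 and 19.2 in library 20, its partner. What these cells contributed to the values below was not tested, and in bulk RNA fewer cells of a type and less RNA per cell cannot be told apart.

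The annotated promoter starts of the members were searched for runs of C and T like that of the TOP motif. A run may lie partly or wholly before the annotated start, so it need not be part of the mRNA. RefSeq promoters (GRCm38.p6) were found for 62 of the members, with 73 annotated starts. The lines below give 30 bases from 10 before the start to 19 after it, 5′ to 3′, for members on which the results turn, and capitals mark a run of at least 5 letters that are all C or T and that reaches to within 5 bases of the start. Fau (chr19:6057937-6057966, plus strand), Rpl15 (chr14:18270967-18270996, minus), Rpl27a (chr7:109519185-109519214, plus), Rpl35 (chr2:39005112-39005141, minus), Rpl18 (chr7:45718061-45718090, plus), Rpl22l1 (chr3:28805498-28805527, plus) and Rps9 (chr7:3704031-3704060, plus) hold such a run. Rpsa (chr9:120127756-120127785, plus), Rps16 (chr7:28350679-28350708, plus), Rplp0 (chr5:115559457-115559486, plus) and Rps12 (chr10:23787190-23787219, minus) hold none at the start that RefSeq gives.
Fau: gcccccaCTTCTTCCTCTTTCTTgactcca
Rpl15: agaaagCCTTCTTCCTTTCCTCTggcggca
Rpl27a: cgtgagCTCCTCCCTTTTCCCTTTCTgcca
Rpl35: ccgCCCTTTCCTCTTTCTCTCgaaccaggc
Rpl18: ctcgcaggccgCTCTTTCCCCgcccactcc
Rpl22l1: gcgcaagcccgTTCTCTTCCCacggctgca
Rps9: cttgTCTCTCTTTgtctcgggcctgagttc
Rpsa: ttatttaaggacgtcatttccggccgcccg
Rps16: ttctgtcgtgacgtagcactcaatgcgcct
Rplp0: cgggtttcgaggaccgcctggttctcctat
Rps12: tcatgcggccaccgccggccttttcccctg

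Of the 73 member starts, 37 (50.7%) had such a run of 5 letters or more, against 32.9% of the 32851 starts in the RefSeq table. A run of at least 8 was found at 25 member starts (34.2%) and at 9.72% of all starts. A C exactly at the start followed by 4 more C or T stood at 14 member starts (19.2%) and at 2.51% of all. The search used the coding strand alone, and a match is no proof of a used start. A start without one says only that no such run reaches to within 5 bases of it. Runs farther downstream were not marked, as in the printed windows of Rpsa, Rplp0 and Rps12. The median level was 334 RPKM for the 25 members with a run of at least 8 and 404 RPKM for the 27 with no run.

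Levels within the family spanned from about 1 to over 2000 RPKM. Rps12, a small-subunit protein, was the highest member, and its levels were 2699.7 RPKM unstimulated and 2234 and 2551 with LPS in WT, 3662 and then 2097 and 1862 in BAFF KO, and 2159 and then 1774 and 1820.2 in APRIL KO. The next in order of mean level were Rpl17 (1574 RPKM), Rps24 (1497 RPKM), Rps29 (1306 RPKM) and Rplp1 (1216 RPKM), the last an acidic protein of the stalk that calls elongation factors to the ribosome. At the other end stood Rpl41, the smallest ribosomal protein, at a mean of 46.1 RPKM, the paralog Rpl7l1 at 30.8, Rps19bp1 at 17.5 and the paralog Rpl36al at 1.27. Rpl36al had 1 to 8 reads per library, and nothing is read from its changes. RPKM divides by a gene length that runs from 251 bp (Rps27) to 6256 bp (Rps15a) in this table and equals the merged exons of the annotation for none of the 82, so part of the order of levels rests on the lengths chosen by the counting.

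Columns that share a library number were taken as measurements of 1 library, and a larger share of members than of other genes had columns far apart. With at least 100 reads in the deeper column, 10 of the 82 members (12.2%) had a library whose columns differed 1.5-fold or more, against 5.04% of 6403 other genes of at least the depth of the second least read member. Rpl27a, a large-subunit gene, had 98.1 and 14.3 RPKM in the columns of library 18 and 88.1 and 15.4 in those of library 21, from 527 and 161 and from 448 and 163 reads. In the other direction, Rps27l had 39.6 and 139 RPKM in library 21.

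In several of these cases the deeper column held about as many reads as the shallower one. Rps10 had 1080 and 1045 reads in library 19 and 1619 and 1605 in library 16, Rps21 had 1437 and 1441 in library 18, Rpl41 had 149 and 148 in library 21, and Rpl7a had 1177 and 1087 in library 13. Rpl13 and Rps21 lay apart in 4 libraries each, Rpl27a in 3, Rpl41, Rpl7a and Rps10 in 2, and the others, among them Rps19, Rps27l and Rps28, in 1. The mean of such columns is uncertain, and how reads that also match the many processed pseudogenes of this family were counted is not given in the sources used here. Counts of calls from RPKM are therefore also given for the 72 members without such a library.

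**Figure D1:**
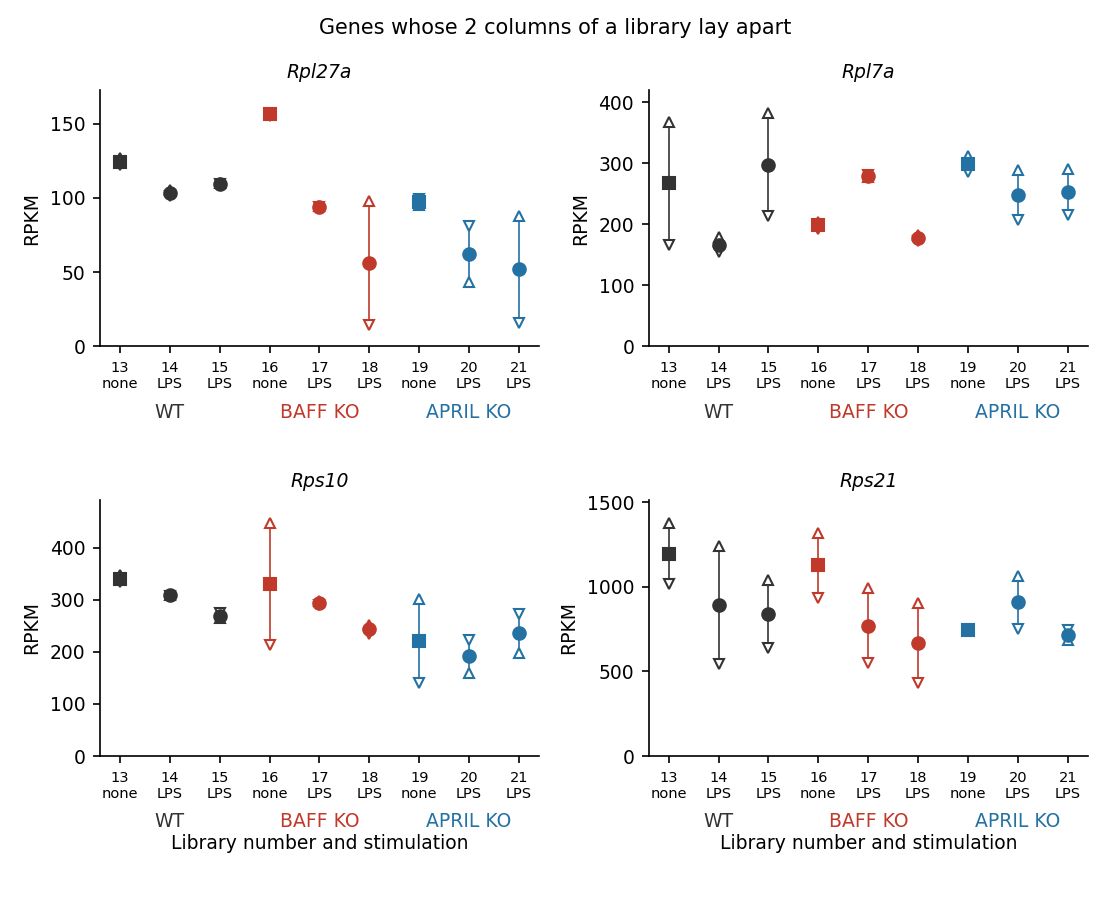
Levels (RPKM, linear axis from 0) of Rpl27a, Rpl7a, Rps10 and Rps21 by library; filled squares are unstimulated and filled circles LPS libraries, and open triangles are the 2 columns of each library (up, lower index; down, higher index). The columns of Rpl27a lie 6.84-fold apart in library 18 and 5.73-fold in library 21, while in libraries 13 to 17 and 19 they lie less than 1.5-fold apart.

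The members together took a smaller share of reads after LPS in each genotype, with the largest step in BAFF KO, while after median ratio scaling their summed level was higher in WT and APRIL KO (log2 0.35 and 0.38) and lower in BAFF KO alone (-0.30). Their share of reads in listed genes was 5.656% unstimulated and 4.654% and 5.129% with LPS in WT. In BAFF KO it was 6.766% and then 4.206% and 3.816%, and in APRIL KO 4.661% and then 4.146% and 4.084%. The 6 LPS libraries did not all lie below the 3 unstimulated ones, since library 15 (WT with LPS) exceeded library 19 (APRIL KO without). The step in BAFF KO starts from the highest library of the series, 16, which is also the one with the most neutrophil RNA, and its part in the result was not tested. With LPS alone, WT averaged 4.89% ± 0.336 (SD, n = 2), BAFF KO 4.01% ± 0.276 (SD, n = 2) and APRIL KO 4.12% ± 0.0438 (SD, n = 2). Small and large subunits moved together: the summed RPKM of small-subunit members was 0.941 to 0.991 times that of large-subunit members in every library.

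**Figure D2:**
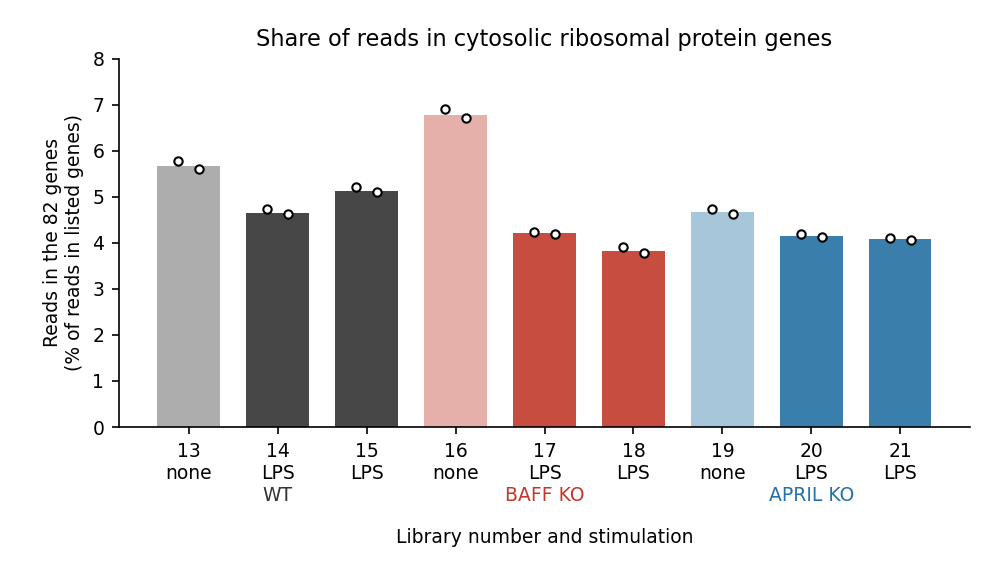
Share of reads in the 82 genes, in percent of the reads in listed genes, for each library; bars are libraries (pale, unstimulated; solid, LPS) and circles are the 2 columns of each. The highest bar is the unstimulated BAFF KO library at 6.766% and the lowest a BAFF KO library with LPS at 3.816%.

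The first comparison asked how LPS changed these genes. Averaged over genotypes, 72 of 82 members were lower with LPS and 0 higher (limma, Benjamini-Hochberg adjusted p below 0.05 over 9934 genes), while 62.1% of all genes tested were lower, 18.1% higher and 80.2% either, and after median ratio scaling, which centres the typical gene on no change, 21 members were higher and 0 lower (31.0% of all genes higher, 30.1% lower). The median member changed by -0.38 on the log2(RPKM + 1) scale and the median gene by -0.44. After median ratio scaling these medians were 0.14 and -0.02. The members were therefore read against the median gene as well. Their spread was narrow, with an SD of 0.132 over members against 0.986 over all genes. Without library 16 the BAFF KO response drops out, so the averaged test covers WT and APRIL KO alone. The test then made 32 calls, all lower, where 58.0% of all genes were lower. The median member changed by -0.21 where the median gene changed by -0.45. With the 3 unstimulated libraries taken as 1 group 58 members were lower (58.7% of all genes), and among the 72 members whose columns agree 66.

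From RPKM and after median ratio scaling, the median member stood above the median gene in WT and APRIL KO and below it in BAFF KO, whereas after quantile normalization it stood below in all 3. In WT 20 members were lower (46.7% of all genes lower, 60.3% either way) and the median member changed by -0.22 where the median gene changed by -0.44; after median ratio scaling 29 were higher (23.0% of all), with a median of 0.33 against -0.01. In APRIL KO 17 members were lower (47.8% of all, 62.1% either way), with a median of -0.17 against -0.46, and after median ratio scaling 37 were higher (23.6% of all), with 0.38 against -0.01. In BAFF KO 73 members were lower (43.8% of all genes, 59.8% either way), with a median of -0.78 against -0.40, and after median ratio scaling 20 were lower (17.3% of all) and 0 higher, with -0.31 against -0.02. Under quantile normalization the members were lower in all 3 genotypes, 61 in WT, 75 in BAFF KO and 56 in APRIL KO, where 27.5%, 30.2% and 28.8% of all genes were lower, with medians of -0.48, -0.69 and -0.45 against -0.16, -0.19 and -0.17 for all genes. With the 3 unstimulated libraries as 1 group, 11 members were lower in WT, 60 in BAFF KO and 50 in APRIL KO. Of all genes 51.0%, 51.0% and 52.2% were lower. Both LPS libraries lay below the unstimulated one of their genotype for 63 members in WT (70.2% of all genes), 80 in BAFF KO (65.3%) and 60 in APRIL KO (69.7%). They lay above it for 4 (22.1%), 0 (26.8%) and 9 (23.4%). Among the 72 members whose columns agree 18 were lower in WT, 68 in BAFF KO and 15 in APRIL KO. Leaving out library 14 brought the WT count to 8 and leaving out library 20 or 21 brought it to 12, leaving out library 20 or 21 brought that of APRIL KO to 9 or 7, and in BAFF KO it was between 71 and 75.

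**Figure D3:**
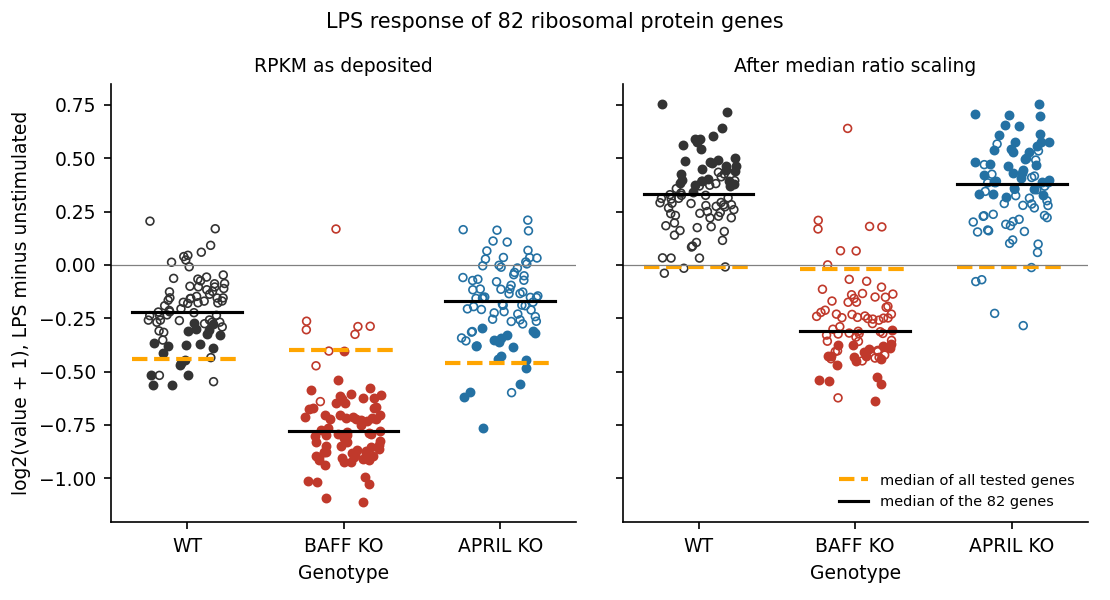
Change with LPS of each of the 82 genes (points; filled where adjusted p is below 0.05) in the 3 genotypes, as a difference in log2(value + 1), from RPKM as deposited (left) and after median ratio scaling (right). Black lines are the medians of the 82 genes (left -0.22, -0.78 and -0.17; right 0.33, -0.31 and 0.38) and dashed lines those of all tested genes, so that WT and APRIL KO change sign with the scaling and BAFF KO does not.

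The difference between genotypes in the LPS response was tested by itself. For BAFF KO against WT the median member differed by -0.56 and the median gene by 0.08, yet 0 members passed (limma, 0.443% of all genes passed), with 61 at an unadjusted p below 0.05 (21.6% of all genes) and 34 lower by voom on the recovered reads (1.56% of all genes lower, 6.03% either way). After quantile normalization the member median was -0.23, with 0 passing and 18 at an unadjusted p below 0.05 (19.9% of all genes). For APRIL KO against WT the medians were 0.01 and -0.00, with 0 members passing in limma (0.0% of all genes) and 2 at an unadjusted p below 0.05 (3.39% of all genes), and 0 by voom. Both differences share the WT libraries, and both rest on the lone unstimulated library of each genotype.

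Single genes show the shapes behind these medians. Rpsa, a small-subunit protein also known as a laminin receptor, went from 542 to 352 and 407 RPKM in WT, from 633 to 326 and 301 in BAFF KO, and from 467 to 285 and 323 in APRIL KO. Every LPS library lay below every unstimulated one, and Rpsa had the largest fall among members in the averaged test, -0.72 on the log2 scale (SE 0.0751, limma adjusted p = 6.5e-05), or -0.19 after median ratio scaling (adjusted p = 0.059). In WT alone it was -0.52 (limma adjusted p = 0.011), which turned to 0.03 after median ratio scaling.

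Rps16, whose protein reaches the peptidyl-tRNA site of the small subunit, had the smallest p of the members for a difference between the BAFF KO and WT responses. Its levels were 765 RPKM unstimulated and 789 and 686 with LPS in WT, 1118 and then 543 and 492 in BAFF KO, and 773 and then 537 and 515 in APRIL KO. The WT libraries overlapped, whereas LPS libraries of both knockouts lay below their unstimulated ones. Rps16 changed by -1.11 in BAFF KO (SE 0.124, limma adjusted p = 0.00024) and by -0.56 in APRIL KO (adjusted p = 0.0059), and its WT value was -0.06 (adjusted p = 0.71). After median ratio scaling these were -0.64, -0.01 and 0.49. The difference of the BAFF KO response from that of WT was -1.05 (SE 0.175, limma adjusted p = 0.06), past the threshold by voom (adjusted p = 0.0091).

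Rpl22l1 had LPS libraries above the unstimulated one in WT and APRIL KO and below it in BAFF KO. Rpl22l1, a paralog that can stand in for Rpl22, went from 120.1 to 144 and 127 RPKM in WT, from 149 to 86.7 and 93.7 in BAFF KO, and from 102 to 106 and 123 in APRIL KO. It changed by -0.72 in BAFF KO (limma adjusted p = 0.0024), its WT and APRIL KO values were 0.17 and 0.16 (adjusted p = 0.28 and 0.3), and the BAFF KO response differed from the WT one by -0.89 (adjusted p = 0.076). After median ratio scaling it was higher in WT (0.72, adjusted p = 0.0028) and APRIL KO (0.70, adjusted p = 0.003) and not called in BAFF KO (-0.25, adjusted p = 0.15).

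**Figure D4:**
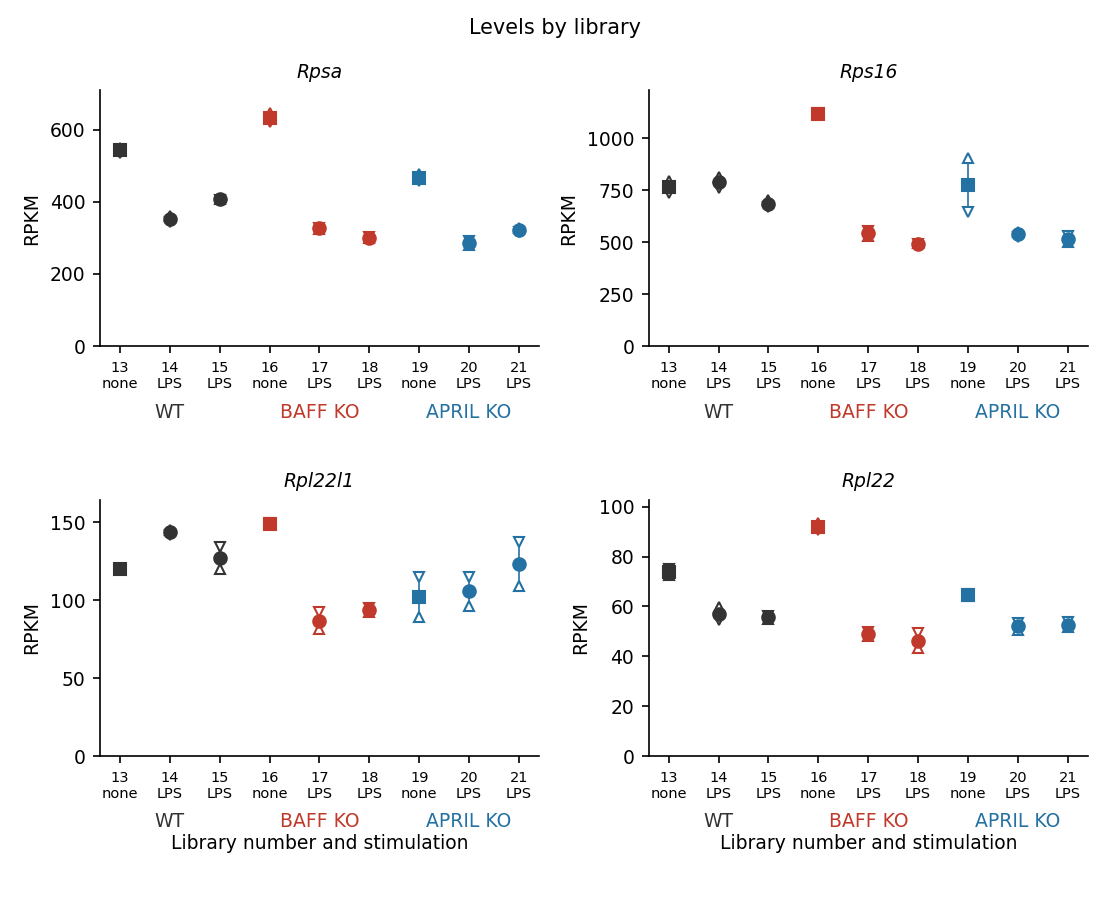
Levels (RPKM, linear axis from 0) of Rpsa, Rps16, Rpl22l1 and Rpl22 in the 9 libraries; filled squares are unstimulated and filled circles LPS libraries, and open triangles are the 2 columns of each library (up, lower index; down, higher index). Rpsa is lower with LPS in each genotype on this scale (in WT its change is 0.03 after median ratio scaling), and the Rps16 libraries of WT (686 to 789 RPKM) overlap while those of BAFF KO drop from 1118 to 543 and 492.

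By the calls on RPKM, 13 members fell in all 3 genotypes, among them Rpl3, Rpl4, Rpl5, Rpl10, Rpl10a, Rpl12, Rpl13, Rpl13a, Rpl14, Rpl22, Rplp0 and Rpsa. The share of all genes that fell in all 3 was not counted. In WT, BAFF KO and APRIL KO singly, 46.7%, 43.8% and 47.8% of all genes were lower. The 13 are 65.0% of the WT calls, 17.8% of the BAFF KO calls and 76.5% of the APRIL KO calls, and after median ratio scaling none of them was lower in WT, where their values lay between 0.03 and 0.28. Rpl10a, of the stalk that guides spent tRNA out of the ribosome, went from 149 to 105 and 123 RPKM in WT, from 165 to 87.5 and 74.1 in BAFF KO, and from 129.9 to 95.8 and 89.8 in APRIL KO. Rpl13a went from 381 to 289 and 245 RPKM in WT, from 458 to 236 and 246 in BAFF KO, and from 333 to 241 and 255 in APRIL KO. Their averaged changes were -0.63 and -0.62 (limma adjusted p = 0.00018 and 8.8e-05), and -0.11 and -0.10 after median ratio scaling (adjusted p = 0.28 and 0.24).

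The other large falls were spread over both subunits. Among the largest in BAFF KO were Rps16, given above, Rpl27a (-1.09), Rpl10a (-1.03), Rpl18 (-1.02) and Rpsa (-1.01), with adjusted p from limma of 0.0084 or less. The 2 columns of Rpl27a disagree in library 18, as given above. In WT the largest were Rps19bp1 (-0.56), Rpl29 (-0.56), Rpl13a (-0.52), Rpsa (-0.52), Rps21 (-0.47) and Rpl12 (-0.46), and after median ratio scaling all of them lay between -0.04 and 0.09. Rpl29 had 146 RPKM unstimulated and 120 and 81 in WT libraries 14 and 15, so its LPS libraries differ widely. Rps19bp1 had only 79 and 53 reads in these. The columns of Rps21 lay apart in both WT LPS libraries, 14 (1241 and 544 RPKM) and 15 (1042 and 642). In APRIL KO they were Rpl27a (-0.76), Rpsa (-0.62), Rpl7l1 (-0.60), Rps16 (-0.56), Rpl10a (-0.48) and Rpl13 (-0.45), and after median ratio scaling between -0.23 and 0.10. The columns of Rpl27a lay apart in both APRIL KO LPS libraries, 20 (43.6 and 81 RPKM) and 21 (88.1 and 15.4). Those of Rpl13 lay apart in library 21 (317 and 204 RPKM). In none of the 3 genotypes did 8 members pass (the share of all genes was not counted), among them Rpl7a, Rpl15, Rpl36al, Rpl41, Rps10, Rps19 and Rps27l. Of these, Rpl7a, Rpl41, Rps10, Rps19 and Rps27l have a library whose columns lay apart.

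The genes of the ribosomal stalk and the fusion gene Fau are given next. Rplp0, the stalk's base, went from 430.02 to 341 and 343 RPKM in WT, from 507 to 330.4 and 308 in BAFF KO, and from 358 to 283 and 295 in APRIL KO, changes of -0.33, -0.67 and -0.31 (limma adjusted p = 0.021, 0.00091 and 0.025) that became 0.22, -0.19 and 0.23 after median ratio scaling. Its partners Rplp1 and Rplp2 passed in BAFF KO alone by call, with changes of -0.87 and -0.76 (limma adjusted p = 0.00085 and 0.004). Fau, made as a fusion with a ubiquitin-like protein, went from 835 to 472 and 415 RPKM in BAFF KO, a change of -0.92 (limma adjusted p = 0.0011), or -0.44 after median ratio scaling (adjusted p = 0.048). Rack1, the scaffold on the small subunit, lies outside the naming rule. It went from 383 to 252 and 250.3 RPKM in BAFF KO, a change of -0.60 (limma adjusted p = 0.001), and averaged over genotypes it changed by -0.37, or by 0.16 after median ratio scaling, where the BAFF KO change was -0.13 and did not pass (adjusted p = 0.31).

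Paralogs were set beside their core genes. Rpl22 went from 73.7 to 57.02 and 55.6 RPKM in WT, from 92 to 49 and 46.2 in BAFF KO, and from 64.5 to 52 and 52.6 in APRIL KO, so its LPS libraries lay below its unstimulated ones in each genotype, unlike those of Rpl22l1. Its changes were -0.38, -0.94 and -0.30 (limma adjusted p = 0.011, 0.00018 and 0.03), and after median ratio scaling 0.16, -0.47 and 0.24. Rps27l, a target of p53, had 191 and then 134 and 174 RPKM in WT, 215 and then 148 and 128 in BAFF KO, and 145 and then 138 and 89.5 in APRIL KO, and passed in none. Its core gene Rps27 changed by -0.92 in BAFF KO (limma adjusted p = 0.0053). Rpl7l1 and Rpl7 changed by -0.67 and -0.62 there (limma adjusted p = 0.0059 and 0.0023), and by -0.21 and -0.15 after median ratio scaling, where neither passed. Rpl36a, the core gene beside Rpl36al, went from 213 to 123 and 105 RPKM in BAFF KO (-0.90, limma adjusted p = 0.00068) and did not pass in WT or APRIL KO.

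The length of the run at the annotated start was set beside the LPS change as a description, for the members with a promoter entry. The 25 members with a run of at least 8 had a median LPS change of -0.12 in WT and the 27 with no run one of -0.27, and in APRIL KO the medians were -0.11 and -0.22. In BAFF KO they were -0.79 and -0.78.

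Without stimulation the genotypes could be compared only by size, with 1 library each and no test. Both BAFF KO columns lay above both WT columns for 67 members (22.8% of all genes) and below for 2, Rpl3 (766 against 784 RPKM) and Rpl7l1 (37.2 against 40.1), where 38.2% of all genes were below, and the median member was 0.28 higher where the median gene was 0.07 lower. Both APRIL KO columns lay below both WT columns for 73 members (24.1% of all genes) and above for 0 (29.0%), with a median of -0.27 against 0.02. Median ratio scaling gave medians of 0.35 and -0.25. The largest differences were, in BAFF KO, Rps16 (1118 against 765 RPKM), Rplp2 (494 against 340.3) and Rps24 (2161 against 1563), and in APRIL KO, Rps21 (747 against 1198), Rps27 (342 against 546) and Rps10 (221 against 340.4), the last with columns apart in library 19. So the libraries before LPS stood in the order BAFF KO, WT and APRIL KO, and no replicate shows how far such libraries vary. The summed neutrophil genes of the 3 libraries stood in the same order, at 6056, 3244 and 2877 RPKM. So did the summed monocyte (1084, 560 and 553), megakaryocyte and osteoclast genes, while the other cell type lists did not. With LPS the neutrophil sum was 2978 and 2581 RPKM in BAFF KO, 1574 and 1989 in WT, and 1827 and 1862 in APRIL KO. The part of these cells in the order was not tested.

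Under LPS, where each genotype had 2 libraries, the median member stood below WT in both knockouts. In BAFF KO 13 members were lower than in WT and 0 higher (limma; 4.35% of all genes lower, 3.99% higher, 8.34% either), with a median difference of -0.29 against 0.02 for all genes, and median ratio scaling gave 11 lower (4.38% of all genes) and -0.30, quantile normalization 8 lower (4.14% of all genes) and -0.15. Both BAFF KO libraries lay below both WT libraries for 69 members (25.5% of all genes) and above for 1, Rpl41 (29.9%). For APRIL KO against WT 0 passed in limma (0.201% of all genes lower, 0.0101% higher, 0.211% either), with 47 at an unadjusted p below 0.05 (15.5% of all genes) and 1 passing by voom (0.846% of all genes). The 47 became 13 without library 15, 19 without library 20, 16 without library 21 and 24 after quantile normalization, where the median member was at -0.15. Its median was -0.26 against 0.01, and both APRIL KO libraries lay below both WT libraries for 69 members (22.6% of all genes). The 2 comparisons share the WT libraries, so their likeness is no independent finding. Between the knockouts 0 passed in limma (3.06% of all genes lower, 2.48% higher, 5.54% either), with 3 at an unadjusted p below 0.05 (19.4% of all genes) and 0 by voom, and the medians were -0.04 and 0.02. The columns of Rps14, 1 of the 13 members lower in BAFF KO, held 855 and 609 RPKM in library 15 and 446 and 596 in library 17. None of the 13 had a library whose columns lay 1.5-fold or more apart. The count is not stable: with any 1 of the 6 LPS libraries left out it was 0 to 2, with no filter on low values 5, and with the lower index columns alone 0.

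**Figure D5:**
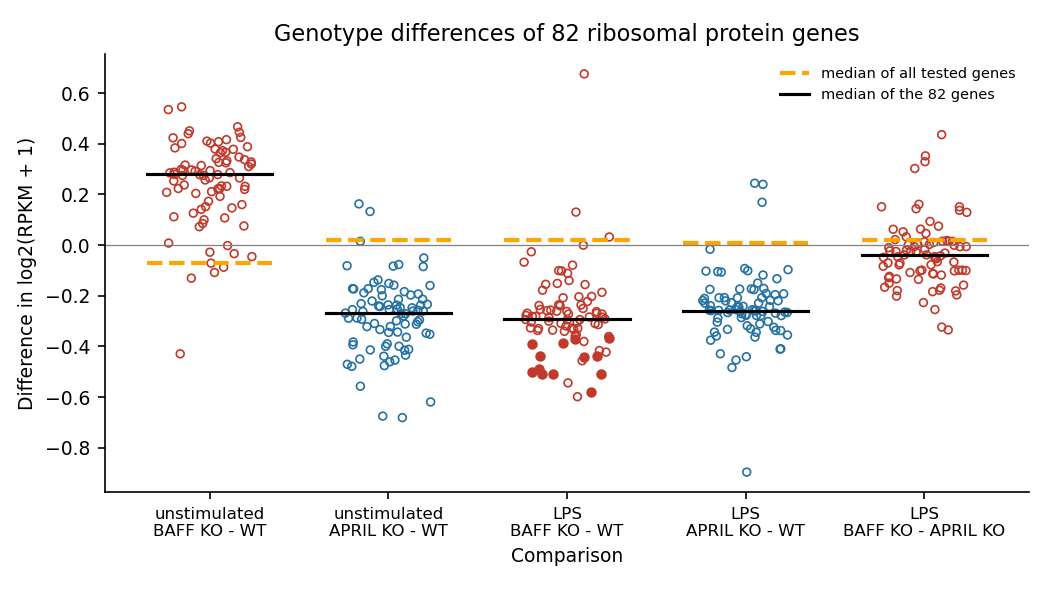
Differences in log2(RPKM + 1) between genotypes for each of the 82 genes (points), without stimulation (1 library each, no test) and with LPS (2 libraries each; filled where adjusted p is below 0.05). Black lines are the medians of the 82 genes (0.28, -0.27, -0.29, -0.26 and -0.04) and dashed lines those of all tested genes (-0.07, 0.02, 0.02, 0.01 and 0.02).

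The 13 members lower in BAFF KO under LPS came from both subunits: Rps9, Rps14, Rps16, Rps18, Rps26, Rpl3, Rpl8, Rpl10a, Rpl18, Rpl34, Rpl35 and the paralogs Rpl7l1 and Rpl22l1. The largest was Rpl22l1, at 144 and 127 RPKM in WT and 86.7 and 93.7 in BAFF KO, a difference of -0.58 (SE 0.106, limma adjusted p = 0.018). Rps26, a small-subunit protein that contacts mRNA before the start codon, had 1199 and 1484 RPKM in WT and 964 and 914 in BAFF KO, a difference of -0.51 (SE 0.116, limma adjusted p = 0.04). In both genes the groups do not overlap.

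Others were as evenly separated with smaller steps. Rpl34 had 531 and 551 RPKM in WT and 413 and 412 in BAFF KO (-0.39, SE 0.0775, limma adjusted p = 0.023), and Rpl8, at the catalytic centre, 607 and 649.8 and then 479 and 491 (-0.37, limma adjusted p = 0.034). Rpl3, also there, had 558 and 594 RPKM in WT and 442 and 408 in BAFF KO (-0.44, limma adjusted p = 0.029). The remaining calls lay between -0.37 and -0.51, and after median ratio scaling Rps18 and Rpl35 no longer passed (adjusted p = 0.052 and 0.054). In the APRIL KO comparison the smallest p was that of Rps16 (-0.48, limma adjusted p = 0.15), and between the knockouts that of Rps14 (-0.32, adjusted p = 0.094). The genes of other cells moved in these comparisons too: in BAFF KO against WT under LPS 20 of 23 skeletal muscle genes tested were lower and 7 of 13 neutrophil genes higher, and in APRIL KO 10 of 23 and 0 of 13. Their part in the result was not tested.

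Libraries of 1 group also differed over the family as a whole. Library 15 lay above library 14 for 67 of 82 members, with a median of 0.13, and library 18 above 17 for 11, with a median of -0.13, where the medians over all genes were -0.01 and 0.02. Libraries 20 and 21 differed by -0.02. So the members of a library shifted together within groups too, and their counts are not independent of each other.

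The other genes of the translation machinery were read in the same way. Of 63 genes of ribosome biogenesis 60 were lower and 2 higher in the averaged LPS test (62.1% of all genes lower, 18.1% higher), with a median of -0.87, and after median ratio scaling 39 were lower and 4 higher, with a median of -0.37. Fbl, the methylase that modifies ribosomal RNA, went from 126 to 82.9 and 85.2 RPKM in WT, from 143 to 52.3 and 56.5 in BAFF KO, and from 107 to 64.1 and 62.5 in APRIL KO. Gnl3, a nucleolar GTPase, and Wdr12, an assembly factor of the large subunit, changed by -1.91 and -1.68 (limma adjusted p = 1.9e-06 and 5.9e-06), while Sbds, which readies the large subunit for joining, and Wdr43, of the small-subunit processome, rose by 1.73 and 0.78 (adjusted p = 1.1e-07 and 1e-05). After median ratio scaling these were -1.40, -1.22, 2.24 and 1.29.

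The list of other mRNAs with a TOP start had a median near both that of the ribosomal proteins (-0.38) and that of all genes (-0.44). Of 17, 14 were lower and 1 higher, with a median of -0.40, and after median ratio scaling 2 were lower and 7 higher, with 0.13. In BAFF KO their median was -0.52, in WT -0.28 and in APRIL KO -0.29. The ribosomal proteins had -0.78, -0.22 and -0.17 there, and all genes -0.40, -0.44 and -0.46. Eif4b, which helps unwind mRNA before the start codon, changed by -1.17 (limma adjusted p = 6.7e-06), or by -0.66 after median ratio scaling. Pabpc1, the poly(A)-binding protein, rose by 0.17 (adjusted p = 0.026), or 0.69 after median ratio scaling. Eef1a1, the factor that brings tRNA, had 2004 and then 1778 and 1749 RPKM in WT, 1988 and then 1512 and 1477 in BAFF KO, and 1917 and then 1599 and 1662 in APRIL KO.

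Initiation factors had 25 of 33 lower and 2 higher (median -0.41), and elongation and release factors 10 of 13 lower and 1 higher (median -0.32), which became 7 lower and 11 higher, and 5 lower and 4 higher, after median ratio scaling. Of 25 genes of mTORC1, TOP control and Myc 21 were lower and 3 higher (median -0.75), and 13 and 5 after median ratio scaling (median -0.29). Larp1, which binds the TOP start, was one that rose, from 21.7 to 47.1 and 43.3 RPKM in WT, from 17.8 to 48.6 and 54.1 in BAFF KO, and from 24.4 to 54.5 and 56.4 in APRIL KO (1.22, limma adjusted p = 2.2e-06). Eif4ebp1, a brake on cap-dependent initiation that mTORC1 releases, fell from 60.7 to 22.5 and 19.6 RPKM in WT, from 57 to 16 and 17.9 in BAFF KO, and from 42.02 to 21.3 and 18.9 in APRIL KO (-1.40, adjusted p = 2.8e-06). Larp1 and Eif4ebp1 showed no overlap between unstimulated and LPS libraries.

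Mitochondrial ribosomal proteins, built for another ribosome, were measured by 73 tested genes. Of these 54 were lower and 3 higher in the averaged test, with a median of -0.47, and 16 and 14 after median ratio scaling, with -0.03. Their medians were -0.35 in WT, -0.71 in BAFF KO and -0.45 in APRIL KO, against -0.22, -0.78 and -0.17 for the cytosolic family. Of 10 genes of the p53 and nucleolar stress list 6 were lower and 2 higher, the risers being Cdkn1a (2.67) and Mdm2 (0.89, limma adjusted p = 0.00013), and 0 and 3 after median ratio scaling.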

How the data were processed

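RNA was sequenced as single reads of 85 bases on a NextSeq 550, per the labels' protocols. STAR and mm10 are named in the submitters' processing notes, and which tool counted reads per gene is not given in the sources used here. RPKM in 18 columns is what the authors deposited. Reads were recovered from the steps of the deposited RPKM: 100% of values came out whole within 0.01 reads.

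The 2 columns of a library were averaged, giving 9 libraries. Genes with a group mean of at least 1 RPKM (9934) were fitted as log2(RPKM + 1) with limma 3.58.1 in R 4.3.3 (6 group means, 3 residual degrees of freedom, eBayes with trend, 2-sided, Benjamini-Hochberg, threshold 0.05). A group with 1 library is assumed to vary like the others. A fold on this scale understates changes of low genes. Lists are described by counts and medians.

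The members and gene lists were chosen with earlier results of these data known. Named members are the 4 highest and 4 lowest, up to 6 largest rises and falls per comparison or the smallest p where none passed, the paralogs with their core genes, the stalk genes and Fau, and the 3 largest unstimulated differences each way. Other lists give up to 2 rises and falls. Alternatives were the pseudocount, filter, scaling, columns, voom on recovered reads, a replicate block and left-out libraries; taking the unstimulated libraries as 1 group and counting only members whose columns agree were added after seeing the data. The fit was tested on simulated data. RefSeq promoters gave the start sequences. Some named results are not reported here.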

Additional observations from a re-analysis of the deposited data

Results flagged for a closer look

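For 8 pairs of a member and a knockout among those reported here, every LPS library of the knockout moved one way and every LPS library of WT the other. The share of all genes that do the same was not counted, so whether 8 is many cannot be told. In BAFF KO these were Rps9, Rpl22l1 and Rps20, whose LPS libraries lay above the unstimulated one in WT and below it in BAFF KO. The differences between the BAFF KO and WT responses were -0.82 for Rps9, -0.89 for Rpl22l1 and -0.45 for Rps20 on the log2(RPKM + 1) scale, and none passed (limma, Benjamini-Hochberg adjusted p = 0.075, 0.076 and 0.16).

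In APRIL KO, Rps27, Rps13, Rpl35a and Rpl34 lay below the unstimulated library in WT and above it in APRIL KO, with differences of 0.33, 0.19, 0.17 and 0.14, and Rps9 lay above it in WT and below it in APRIL KO, with -0.16 (limma, adjusted p = 1 for each). Each rests on 1 unstimulated library per genotype. The opposite directions hold on RPKM. After median ratio scaling Rps27, Rps13, Rpl35a, Rpl34 and Rps9 were above 0 in both WT and APRIL KO, and so was Rps20 in WT and BAFF KO (0.59 and 0.07), whereas Rps9 (0.64 and -0.26) and Rpl22l1 (0.72 and -0.25) kept opposite signs in WT and BAFF KO.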

How the results depend on the processing

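After median ratio scaling the members called with LPS turned from lower to higher in the averaged test (21), in WT (29) and in APRIL KO (37), and in BAFF KO 20 were lower in place of 73; the summed level changed by 0.35, 0.38 and -0.30 (log2) in WT, APRIL KO and BAFF KO in place of -0.20, -0.16 and -0.78. Calls over other lists in the averaged test became 9 for other TOP mRNAs, 18 for initiation factors and 3 for the p53 list, each now mostly higher, and 30 for mitochondrial ribosomal proteins. Among single genes it reversed, in WT, Rpl13a (0.03), Rpsa (0.03), Rps21 (0.08), Rpl12 (0.09), Rps16 (0.49), Rpl22 (0.16) and Rplp0 (0.22), and in APRIL KO, Rpl10a (0.06), Rpl13 (0.10), Rpl22 (0.24) and Rplp0 (0.23). Quantile normalization gave 61 calls in WT (45.3% of all genes), 56 in APRIL KO (47.6%) and 8 for BAFF KO against WT under LPS (8.62%). It reversed Rpl22l1 in WT (-0.04) and APRIL KO (-0.04).

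For BAFF KO against WT under LPS, no filter gave 5 calls (5.53% of all genes). The lower index columns alone gave 10 in WT (41.6% of all genes) and 0 for BAFF KO against WT under LPS (2.31%). Higher index columns alone gave 1 between the knockouts (4.53%). Taking the 18 columns as separate samples counts each library more than once. It gave 46 calls in WT (70.7% of all genes) and 35 in APRIL KO (72.4%). Under LPS it gave 60 for BAFF KO against WT (27.2%), 51 for APRIL KO against WT (13.7%) and 7 between the knockouts (18.4%). For the BAFF KO response against that of WT it gave 64 (22.1%). Under LPS voom gave 33 for BAFF KO against WT (12.2% of all genes) and 1 for APRIL KO against WT (0.846%). Its count for the BAFF KO response was 34 (6.03%). With the 3 unstimulated libraries as 1 group 11 members were lower in WT, 60 in BAFF KO and 50 in APRIL KO. Of all genes 51.0%, 51.0% and 52.2% were lower. Rpl22l1 (-0.10) in APRIL KO reversed. A pseudocount of 0.1 changed none of the 60 single results.

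The replicate numbers only order the libraries: between groups, the second-minus-first differences correlated at -0.18, -0.10 and 0.12. With the replicate block there were 9 calls in WT (55.3% of all genes), 9 in APRIL KO (57.3%) and 2 for BAFF KO against WT (5.68%). Rps16 in WT reversed (0.01). Leaving out 1 library gave 32 to 75 calls in the averaged test, 8 to 16 in WT, 71 to 75 in BAFF KO, 7 to 17 in APRIL KO, 0 to 2 for BAFF KO against WT and 0 elsewhere, and Rps16 in WT reversed without library 15 (0.04). Where the library left out was unstimulated, the averaged test covered only the other genotypes. The share of starts with a run was 34.2% when 8 letters were required. The cause of these changes was not tested. Depth limits Rpl36al and Rps19bp1, and each response rests on 1 unstimulated library per genotype.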
